A study of Mus musculus with 12 samples.

Results

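Mitochondrial ribosomal proteins were followed across 12 mouse kidney libraries as the genes whose symbol is Mrpl (large subunit) or Mrps (small subunit) followed by a digit. Of the 21899 genes in the table, 78 protein-coding genes carried such a symbol and 77 had a mean above 0, 48 of them Mrpl and 29 Mrps. The remaining one, Mrpl53, was listed at 0 in every library. Members were picked by name and a mean above 0, not by a difference between groups, though earlier results of these data were known. The 4 groups of 3 libraries each were labelled db/m-veh (the study's normal control), db/db-veh (its diabetic nephropathy group), db/m-GABP-OE (GABP overexpression in db/m mice) and db/db-GABP-KD (GABP knockdown in db/db mice). Mice of the db/db genotype lack a working leptin receptor, which makes them obese with diabetes. Their db/m relatives stay lean. The sources used here do not say how GABP was raised or lowered, nor the age and sex of the mice. Each group drew on 6 mice, with 3 tissues mixed per pool. These numbers do not fill 3 libraries with separate animals, and how libraries map to pools is not known. Libraries of 1 group may therefore share animals, and p-values measure only the spread between these libraries.

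The mitochondrial ribosome makes the 13 proteins that mitochondrial DNA encodes, all of them core subunits of the respiratory chain and of ATP synthase. Its rRNAs come from mitochondrial DNA, whereas every protein is encoded in the nucleus, made in the cytosol and imported. Some of these proteins have a counterpart in the bacterial ribosome and others exist only in mitochondria. Proximal tubule and thick ascending limb cells of the kidney are rich in mitochondria. GABP (nuclear respiratory factor 2) is an ETS-family factor of a DNA-binding alpha subunit, Gabpa, and a beta subunit, Gabpb1 or Gabpb2. It binds GGAA sites in promoters of many nuclear genes for mitochondrial proteins.

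The values are FPKM, that is fragments scaled to exon length and to the total of the library, and they were turned back into 6778003 to 9697443 fragments per library. Between 47.95% and 86.0% of these lay on the 13 mitochondrially encoded genes. That share (mean ± SD, n = 3 each) was 71.8 ± 5.28% for db/m-veh and 60.9 ± 2.92% for db/m-GABP-OE. It was 78.8 ± 6.18% for db/db-veh and 65.9 ± 15.5% for db/db-GABP-KD. A higher share leaves fewer fragments for nuclear genes and lowers all of their FPKM. The main values are therefore given as deposited and after median of ratios scaling, which divides a library by its typical ratio to the other libraries. The scaling factors ran from 0.527 in db/db-veh 2 to 1.71 in db/db-GABP-KD 1, and these 2 libraries stood apart. As deposited, the median log2 fold change of all 12897 genes tested was -0.24 between the diabetic and the control group (db/db-veh minus db/m-veh). It was 0.38 for GABP-OE within db/m mice and 0.42 for the label GABP-KD within db/db mice. After scaling these medians were 0.01, 0.04 and 0.00. The 3 comparisons share control libraries, db/m-veh in the first 2 and db/db-veh in the first and the third. All 10 proximal tubule markers and all 4 thick ascending limb markers were detected in the kidney libraries.

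Gabpa checks the labels. Its FPKM was 1.79, 2.32 and 2.54 in db/m-veh and 3.45, 3.35 and 3.71 with GABP-OE. Among db/db mice it was 2.20, 2.17 and 1.63 with veh and 6.62, 2.66 and 3.40 with the label GABP-KD. As deposited, every library labelled GABP-KD thus lay above every db/db-veh library, against the direction of the label. After scaling the values were 2.40, 4.12 and 2.03 in db/db-veh and 3.88, 3.01 and 3.72 with the label GABP-KD, so the groups overlapped and db/db-veh 2 was highest. With GABP-OE the scaled values were 2.74, 2.58 and 2.80, against 1.83, 2.83 and 2.35 in db/m-veh. These groups overlapped too, and db/m-veh 2 was highest. The rise with GABP-OE as deposited was thus not clear after scaling. On neither scale was Gabpa lower as a group in the libraries labelled GABP-KD, and so the text below keeps the word labelled for them. On the log2 scale Gabpa differed by 0.57 ± 0.33 (SE) with GABP-OE and 0.84 ± 0.33 in the libraries labelled GABP-KD, with adjusted p of 0.435 and 0.345 by limma. After scaling it was 0.19 and 0.31. Gabpb1 stood at 0.61 and 0.51 and Gabpb2 at 0.36 and 0.45 in the same 2 comparisons as deposited, and none passed the test.

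Members differed widely in level. Mrps21, a small subunit protein with a bacterial counterpart (chr3:95862634-95871519, minus strand, GRCm38), had the highest mean over the 12 libraries at 65.8 FPKM. The other leading small subunit genes were Mrps7 at 17.9, Mrps15 at 15.3, Mrps28 at 10.9 and Mrps24 at 10.7. In the large subunit Mrpl54, which exists only in mitochondria (chr10:81264713-81266934), had a mean of 28.0 and Mrpl12, part of the stalk that contacts translation factors, 27.9. They were followed by Mrpl34 at 25.5, Mrpl38 at 19.6 and Mrpl2 at 19.0. The 3 lowest Mrpl genes were Mrpl33 at 0.340, Mrpl3 at 1.23 and Mrpl47 at 1.44, and the 3 lowest Mrps genes Mrps18b at 1.19, Mrps30 at 1.28 and Mrps25 at 1.499. The median over members was 4.60 FPKM against 2.21 for all genes tested, 6.04 for Mrpl and 3.76 for Mrps. FPKM divides by the summed length of all annotated exons of a gene, which ran from 607 to 8631 bases among members (median 2533, all genes tested 4270). Mrpl33, the lowest, has 7326 such bases in the annotation.

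**Figure D1:**
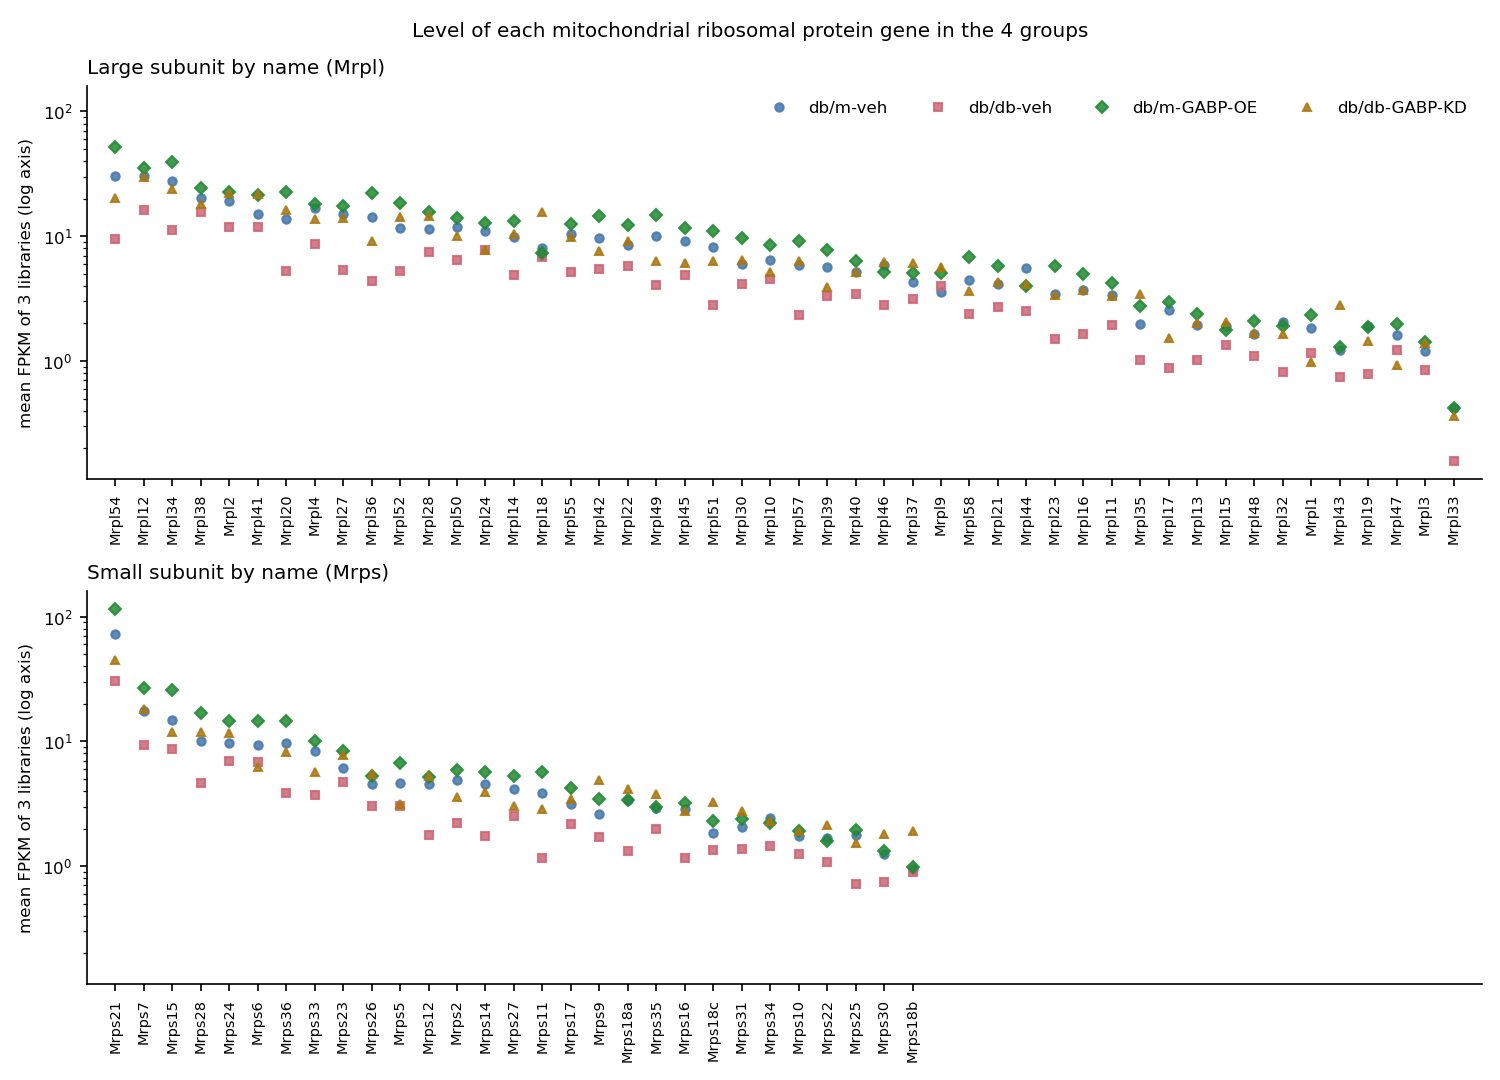
Mean FPKM of 3 libraries (log axis) for each of 48 Mrpl genes (top) and 29 Mrps genes (bottom), ordered by mean over all 12 libraries, with 1 symbol per group. Mrps21 leads at 65.8 FPKM and Mrpl33 is lowest at 0.340, and db/db-veh (squares) holds the lowest point for most genes.

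Some values are uncertain because exons are shared. Of the 77 members, 32 shared at least 1 exon base with another gene in GENCODE M21, and 9 shared over 20%: Mrps34 (77.8%, Mapk8ip3 and Nme3), Mrps25 (69.8%, Nr2c2), Mrpl19, Mrpl43, Mrps18b, Mrpl24, Mrpl47, Mrps27 and Mrps18c. The sources used here do not say whether the counting used strand. Mrpl53, the gene at 0, shares 88.0% of its 790 exon bases with Ccdc142os and Gm42688. Mrpl23, Mrpl48 and Mrps36 also have named processed pseudogenes, 5 in all. In all 12 libraries together the members rested on 119678 fragments, from 234 for Mrpl43 to 5052 for Mrps21.

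Promoters were read for the GABP site because GABP is what the study altered. RefSeq promoters (GRCm38.p6, 250 bases before to 50 after a start) were found for 68 of the 77 members. The motif CCGGAAGT, on either strand, occurred in 12 of these 68 (17.6%), in 8.67% of the genes tested and in 4.31% of all genes with a promoter in the table. Its core CGGAAG, which it contains, occurred in 38 members (55.9%), against 33.5% and 18.8%. For 2 other factors of mitochondrial gene promoters, GCGCATGC (NRF1) occurred in 8 members (11.8%, against 5.63% and 3.05%) and AAGATGGCG (YY1) in 8 (11.8%, against 3.41% and 1.64%). Promoters of members and of genes tested had similar composition, with a median GC content of 58.5% and 60.3%, against 52.7% for all promoters. A match describes letters in this window and nothing about binding. The 12 matches are shown on the gene's strand with 10 bases on each side, the motif or its reverse complement in capitals, because they are the members a GABP effect would be looked for in first.
Mrpl18 (chr17:12916314-12916341, - strand): actgaaaacgCCGGAAGTagggggctgc
Mrpl27 (chr11:94653726-94653753, + strand): tccgcaagacCCGGAAGTagatctatcc
Mrpl3 (chr9:105053239-105053266, + strand): gagaaacggaCCGGAAGTggcccggctg
Mrpl33 (chr5:31613938-31613965, + strand): cgcgcatgccCCGGAAGTagtcgttgag
Mrpl43 (chr19:45006437-45006464, - strand): aaccccggaaCCGGAAGTcaccggttag
Mrpl48 (chr7:100583148-100583175, - strand): ggttttaaaaACTTCCGGaaccaagatg
Mrpl51 (chr6:125192100-125192127, + strand): aggggctaaaCCGGAAGTatttgactgg
Mrpl52 (chr14:54426900-54426927, + strand): ggccacgcccACTTCCGGttcccttgct
Mrps18c (chr5:100798592-100798619, + strand): gggtcacgtgACTTCCGGcccgggaagc
Mrps22 (chr9:98601673-98601700, - strand): acctctcgagCCGGAAGTtgctctatcg
Mrps26 (chr2:130563732-130563759, + strand): ctccgcggccACTTCCGGgccgggcgca
Mrps27 (chr13:99344727-99344754, + strand): tggtaggaccACTTCCGGcggaggcggg

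Distances are counted from the RefSeq start, with negative numbers before it. The first motif base lay between -55 and 2 in 9 of the 12, at -90 in Mrpl51, at -157 in Mrps18c and at -240 in Mrpl18. Mrpl52, the motif member with the largest fold change under GABP-OE, has its match just after the start. The 250 bases before that start, which lie in no annotated exon, are shown for this gene and contain no full match, so they are in lower case throughout.
Mrpl52 upstream (chr14:54426659-54426908, + strand): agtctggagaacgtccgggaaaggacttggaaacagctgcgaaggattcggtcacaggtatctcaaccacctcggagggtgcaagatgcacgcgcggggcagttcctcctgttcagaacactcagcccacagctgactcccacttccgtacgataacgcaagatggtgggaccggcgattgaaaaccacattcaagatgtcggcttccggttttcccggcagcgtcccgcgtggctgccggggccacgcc

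Diabetic and control kidneys (db/db-veh and db/m-veh) were compared first. Of the 77 members, 76 had a lower mean log2 level in db/db-veh, with a median log2 fold change of -0.73 against -0.24 for all genes tested. After scaling the medians were -0.42 and 0.01, and 74 members lay below 0. On each scale 3 members lay above the all-gene median. As deposited, fold changes of all genes fell with level. Their medians were -0.17, -0.32, -0.44 and -0.66 for a mean log2 level up to 2, 2 to 3, 3 to 4 and over 4. The members' medians in these classes were -0.54 (29 genes), -0.73 (21), -0.97 (19) and -0.94 (8). Relative to all genes of the class that is -0.37, -0.41, -0.53 and -0.27. No member passed the test (limma, Benjamini-Hochberg adjusted p under 0.05 over 12897 genes), in a comparison where 12 genes, 0.093%, did. At an unadjusted p under 0.05 limma had 33 members (42.9%), all lower, where 11.5% of all genes reached that level, 1386 of 1489 lower. The smallest adjusted p was 0.178, for Mrps11. voom on the recovered fragments also called 0, with 17 members at an unadjusted p under 0.05. It scales each library by the fragments of the genes it tests, so its scale is not the deposited one. Its median was -0.47 for members and 0.05 for all genes, and the share of all genes at that p is not given. limma with library weights called 21 members, all lower, among 642 genes or 4.98%. Its weights were 0.576, 0.669 and 2.90 for db/m-veh 1 to 3 and 0.732, 0.327 and 1.44 for db/db-veh 1 to 3. The db/m-veh mean in that fit thus rests mostly on db/m-veh 3. The least weight, 0.143, went to db/db-GABP-KD 1, which is outside this comparison. Mrpl54, Mrpl36, Mrpl51, Mrps11 and Mrps12 were among the 21.

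Member values of all 3 db/db-veh libraries lay below all 3 db/m-veh libraries for 38 members (49.4%), against 14.4% of all genes tested. After scaling this held for 27 members, against 9.03%, and no member lay the other way on either scale. Without db/db-veh 2, the library with the fewest nuclear fragments, the members' median was -0.52 and that of all genes -0.09, and 16 members rather than 33 had an unadjusted p under 0.05. Without the control library db/m-veh 3 the medians were -0.63 and -0.18, and 14 members had such a p. After scaling 28 members had one (36.4%, against 11.99% of all genes), and 14 without db/m-veh 3. With the nuclear FPKM of each library set to an equal sum, 9 had. The share of all genes is not given for the fits without a library or with equal sums. Their counts alone therefore show no change particular to the members. Fewer cells of a type and less RNA per cell cannot be told apart in these bulk samples.

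Mrpl54, Mrpl36, Mrps11 and Mrpl51 had the lowest fold changes. Mrpl54 had 31.1, 22.1 and 37.2 FPKM in db/m-veh and 8.04, 4.72 and 15.8 in db/db-veh. The groups did not overlap, and the log2 fold change was -1.74 ± 0.50 (SE, adjusted p = 0.245, limma). Mrpl36, a small zinc-binding protein of the large subunit (chr13:73328513-73332178), had 13.4, 9.73 and 19.7 in db/m-veh and 4.06, 2.12 and 7.06 in db/db-veh. Its log2 fold change was -1.66 ± 0.42 (adjusted p = 0.219, limma), also without overlap. Mrps11, a platform protein of the small subunit (chr7:78783119-78792989), was the most even of the 4 in db/m-veh, with 3.62, 4.05 and 3.85 against 1.70, 0.896 and 0.899 in db/db-veh. Its log2 fold change was -1.42 ± 0.34 as deposited and -1.16 after scaling (adjusted p = 0.178 and 0.122, limma). Without db/db-GABP-KD 1, which enters the shared estimate of the spread only, Mrps11 passed limma at an adjusted p of 0.0465. Mrpl51 had 6.60, 7.26 and 10.8 against 3.43, 1.73 and 3.35, a log2 fold change of -1.40 ± 0.42.

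At the other end stood Mrpl9, with 2.71, 3.96 and 4.08 FPKM in db/m-veh and 6.05, 3.02 and 2.94 in db/db-veh. Its groups overlapped and its log2 fold change of 0.09 ± 0.48 was the only one above 0. Mrps18b (-0.19), Mrpl18 (-0.21) and Mrpl47 (-0.30) followed, all with overlapping groups. Mrps18b lay above the all-gene median as deposited and below it after scaling. In the sums over members, db/m-veh libraries stood at 628 to 673 FPKM after scaling and db/db-veh libraries at 403 to 470. As a percentage of all nuclear FPKM the members made up 0.672 ± 0.074 in db/m-veh and 0.561 ± 0.052 in db/db-veh, and on that measure the libraries overlapped (0.588 to 0.728 against 0.509 to 0.614). Red blood cell markers (4 of 4 detected) summed to 537 to 1441 in db/m-veh and 254 to 410 in db/db-veh after scaling. Proximal tubule markers (10 of 10) overlapped, at 536 to 1530 and 667 to 1021. The part of either in the members' values was not tested.

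**Figure D2:**
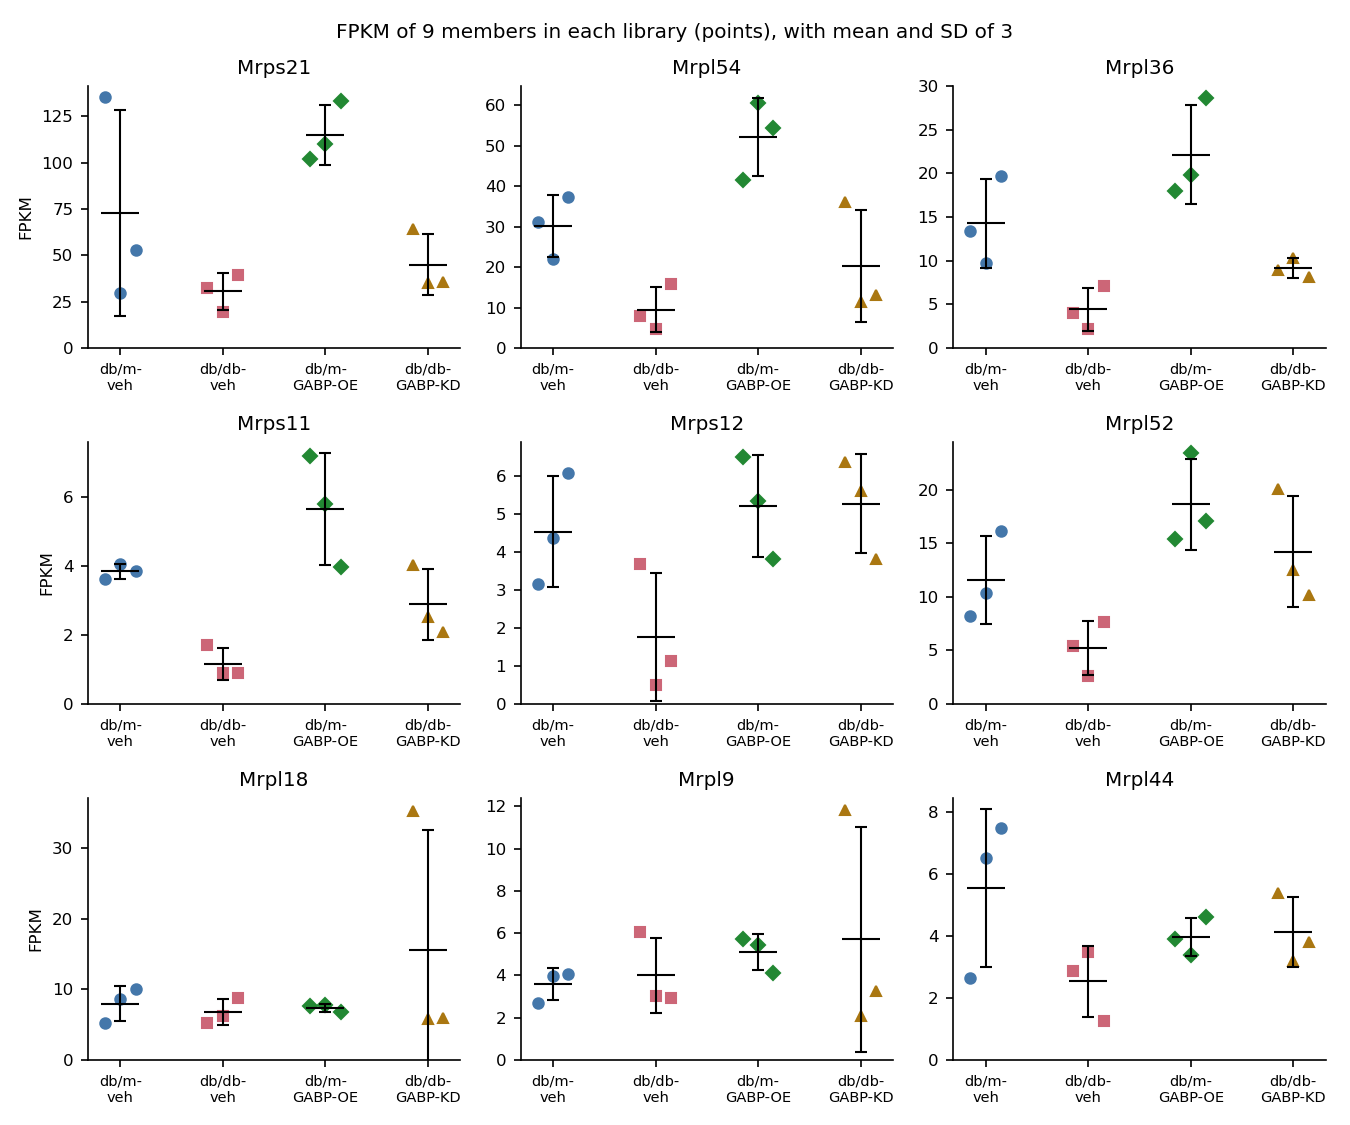
FPKM as deposited (linear axis from 0) of 9 members in each of the 12 libraries, with group mean and SD of 3 in black (SD bars are cut at 0). Mrpl54, Mrpl36 and Mrps11 do not overlap between db/m-veh and db/db-veh, and in Mrpl18 a single library, db/db-GABP-KD 1 at 35.3, stands apart from 5.75 and 5.90.

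GABP overexpression was compared within db/m mice. Members had a median log2 fold change of 0.30 as deposited, below the 0.38 of all genes tested, and 70 of 77 lay above 0. That order was not stable: members stood at 0.30 against 0.28 with no filter on low genes, 0.41 against 0.39 without db/m-GABP-OE 1 and 0.452 against 0.446 without db/m-veh 3. After scaling the members' median was -0.09 against 0.04, with 30 above 0 and 47 below, so the sign for the group depends on the scaling. Without db/m-GABP-OE 1 the scaled median of the members was 0.0008. No member passed limma, while 245 genes, 1.9%, did. At an unadjusted p under 0.05 there was 1 member, Mrpl23 (1.30%, against 15.05% of all genes), and voom had 0 at either level. Library weights gave 3 members, Mrpl23, Mrps15 and Mrps21, all higher, among 21.4% of all genes. As deposited, 12 members (15.6%) were higher in every db/m-GABP-OE library, against 30.4% of all genes tested. After scaling 0 were higher, against 9.72%, and 5 were lower (Mrpl37, Mrpl32, Mrpl19, Mrps18a and Mrps30), against 4.7% of all genes.

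Mrps21 had the highest fold change, with 102, 110 and 133 FPKM under GABP-OE. Its db/m-veh values of 135, 29.8 and 53.0 overlapped that range through db/m-veh 1, and its log2 fold change was 0.93 ± 0.51 (SE, adjusted p = 0.405, limma). Mrps15 was next at 0.82 ± 0.43, with 17.1, 26.7 and 33.9 against 21.4, 9.45 and 13.3. Mrpl54 had 41.6, 60.6 and 54.5 against 31.1, 22.1 and 37.2 with no overlap, a log2 fold change of 0.80 ± 0.50 that was 0.36 after scaling. Mrps28 stood at 0.77 ± 0.49, again without overlap as deposited (12.9, 20.8 and 17.2 against 12.3, 5.81 and 12.03). Mrpl23, which sits at the exit of the peptide tunnel, had values of 4.92, 7.30 and 5.22 against 3.31, 3.25 and 3.82. Its log2 fold change of 0.66 ± 0.30 had an unadjusted p of 0.0455 and an adjusted p of 0.319 by limma.

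The lowest were Mrpl44 (-0.34), a protein with an RNase III fold, Mrps34 (-0.14), Mrpl32 (-0.09) and Mrpl18 (-0.07). Mrpl44 had 3.91, 3.38 and 4.60 FPKM against 2.66, 6.52 and 7.49, with db/m-veh 1 below and the other two above. Immune markers (4 of 4 detected) summed to 6.83 to 11.9 with GABP-OE and 2.42 to 2.75 in db/m-veh after scaling. Thick ascending limb markers (4 of 4) summed to 128 to 133 and 74.5 to 120, and endothelial markers (4 of 4) to 91.4 to 145 and 64.9 to 88.5. Their part in the members' values was not tested.

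The libraries labelled GABP-KD were compared with db/db-veh. Members had a median log2 fold change of 0.66 against 0.42 for all genes as deposited, and of 0.19 against 0.00 after scaling. As deposited 74 of 77 lay above 0, and after scaling 57. Fold changes of all genes as deposited rose with level in this comparison, whereas they fell with level between db/db-veh and db/m-veh. Their medians were 0.34, 0.55, 0.64 and 0.73 for a mean log2 level up to 2, 2 to 3, 3 to 4 and over 4. The members' medians in these classes were 0.69 (29 genes), 0.55 (21), 0.66 (19) and 0.81 (8). Members thus lay 0.35 above all genes in the lowest class, but only 0.001, 0.02 and 0.08 above them in the others. Again no member passed limma, and no gene did (0.0%). At an unadjusted p under 0.05 there were 24 members (31.2%), all higher, where 14.3% of all genes reached that level and 1765 of those 1839 were higher. After scaling there were 7 higher and 2 lower members, and voom called 0 and had 3 higher and 1 lower at that level. Without db/db-veh 2 there were 8 members as deposited, all higher. For the scaled fit, voom and the fit without db/db-veh 2, the share of all genes at that level is not given. As deposited 22 members (28.6%) were higher in all 3 libraries labelled GABP-KD than in all 3 db/db-veh libraries, against 17.3% of genes. After scaling 11 were higher, against 4.63%, and 1, Mrpl1 of the stalk at the exit for tRNA, was lower, against 5.67%.

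The size of this median depended on 1 library in each group. Without db/db-GABP-KD 1 the members' median was 0.36 and that of all genes 0.22, and without db/db-veh 2 they were 0.51 and 0.25. At an unadjusted p under 0.05 there were then 12 and 8 members in place of 24. The share of all genes in these fits is not given, so the drop is not shown to be particular to the members. In db/db-GABP-KD 1 the members summed to 902 FPKM as deposited, against 407 and 447 in the other two, and to 529, 460 and 490 after scaling. The db/db-veh sums after scaling were 437, 403 and 470.

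Mrps12, which lies at the decoding centre of the small subunit (chr7:28739641-28741820), had the highest fold change. Its FPKM was 6.37, 5.60 and 3.83 in the libraries labelled GABP-KD and 3.69, 0.499 and 1.13 in db/db-veh, without overlap as deposited and with overlap after scaling. The log2 fold change was 1.58 ± 0.45 (SE, adjusted p = 0.337, limma) and 1.15 after scaling, and 1 library rests on as few as 4 fragments. Mrpl52 had 20.1, 12.5 and 10.1 against 5.45, 2.57 and 7.63, a log2 fold change of 1.42 ± 0.43, and did not overlap on either scale (0.86 after scaling). Mrpl20 (1.30) and Mrpl35 (1.28) had 1 high library, db/db-GABP-KD 1: Mrpl20 had 33.8 there and 7.70 and 7.52 in the other two. Mrpl18 was the extreme case at 35.3, 5.75 and 5.90, and its log2 fold change of 0.66 ± 0.54 had overlapping groups.

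At the low end were Mrpl47 (-0.27), Mrpl1 (-0.21), Mrps6 (-0.03) and Mrpl24 (0.04). Mrpl1 had 1.60, 0.651 and 0.695 FPKM against 1.41, 1.21 and 0.879, and only after scaling did every library labelled GABP-KD lie lower, at a log2 fold change of -0.67. Mrpl36 and Mrps11, which were low in db/db-veh, had 8.97, 10.3 and 8.08 and 4.03, 2.52 and 2.10 FPKM here. Their log2 fold changes were 1.09 ± 0.42 and 1.02 ± 0.34. Both comparisons read the same db/db-veh libraries, so a low db/db-veh value enters both with opposite sign. Thick ascending limb markers summed to 20.4 to 45.7 here and to 76.6 to 129 in db/db-veh after scaling. Proximal tubule markers summed to 389 to 646 and 667 to 1021, immune markers to 4.98 to 6.80 and 1.12 to 4.93, and red blood cell markers to 37.1 to 155 and 254 to 410. The part of these cell types in the members' values was not tested.

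The effect of GABP-OE minus that of the label GABP-KD tests whether the 2 effects differ. The members' median difference was -0.45 log2 units, against -0.05 for all genes (-0.32 against 0.05 after scaling), and -0.01 against 0.15 without db/db-GABP-KD 1. No member passed limma, and 17 genes, 0.132%, did. Mrps12, at -1.38 ± 0.64, was the 1 member with an unadjusted p under 0.05 (0.0443), its adjusted p was 0.889, and voom also had 1 member at that level and called 0. The difference was positive and largest for Mrps6 at 0.78 ± 0.65.

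**Figure D3:**
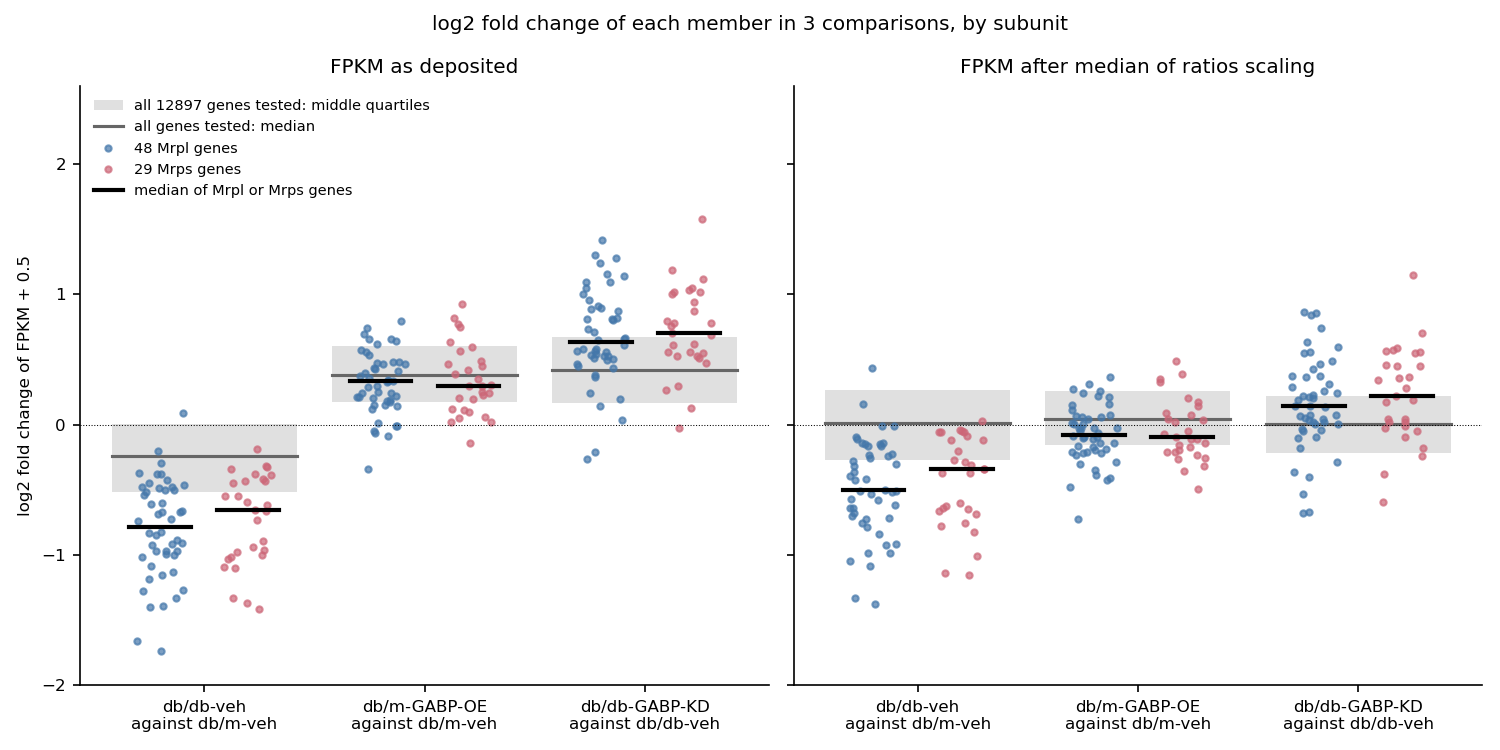
log2 fold change of FPKM + 0.5 for each Mrpl gene (blue) and Mrps gene (red) in 3 comparisons, as deposited (left) and after median of ratios scaling (right), with black bars at their medians, grey lines at the median of all 12897 genes and grey boxes at their middle quartiles. In db/db-veh the medians of both subunits lie below the grey box on both sides, and with GABP-OE they change sign with the scaling.

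The 2 subunits were then set side by side. For db/db-veh the median log2 fold change was -0.78 for Mrpl and -0.66 for Mrps, or -0.51 and -0.34 after scaling. Non-overlapping lower values were found for 29 of 48 Mrpl (60.4%) and 9 of 29 Mrps genes (31.0%) as deposited, against 14.4% of all genes. After scaling they were found for 20 (41.7%) and 7 (24.1%), against 9.03%. For GABP-OE the medians were 0.33 and 0.30, or -0.08 and -0.10, and for the label GABP-KD 0.63 and 0.70, or 0.14 and 0.22. The difference between subunits was not tested, since members of one ribosome are not replicates.

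The ratio of summed Mrpl to summed Mrps FPKM does not depend on library scaling. It was 1.41, 2.36 and 2.12 in db/m-veh (1.96 ± 0.498, SD, n = 3) and 1.85, 1.82 and 2.15 in db/db-veh (1.94 ± 0.180). It was 1.58, 1.80 and 1.73 in db/m-GABP-OE (1.71 ± 0.114) and 2.21, 1.85 and 2.03 in the libraries labelled GABP-KD (2.03 ± 0.180). Every GABP-OE library lay below every db/db-veh library and every library labelled GABP-KD, but within the range of db/m-veh. Much of this spread was in Mrps21, which had 135 FPKM in db/m-veh 1. Without it the ratio was 2.79, 2.93 and 2.77 in db/m-veh (2.83 ± 0.089). Without Mrps21 the other groups stood at 2.69 ± 0.449, 2.67 ± 0.197 and 2.67 ± 0.201 in the same order, and all 4 groups overlapped.

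**Figure D4:**
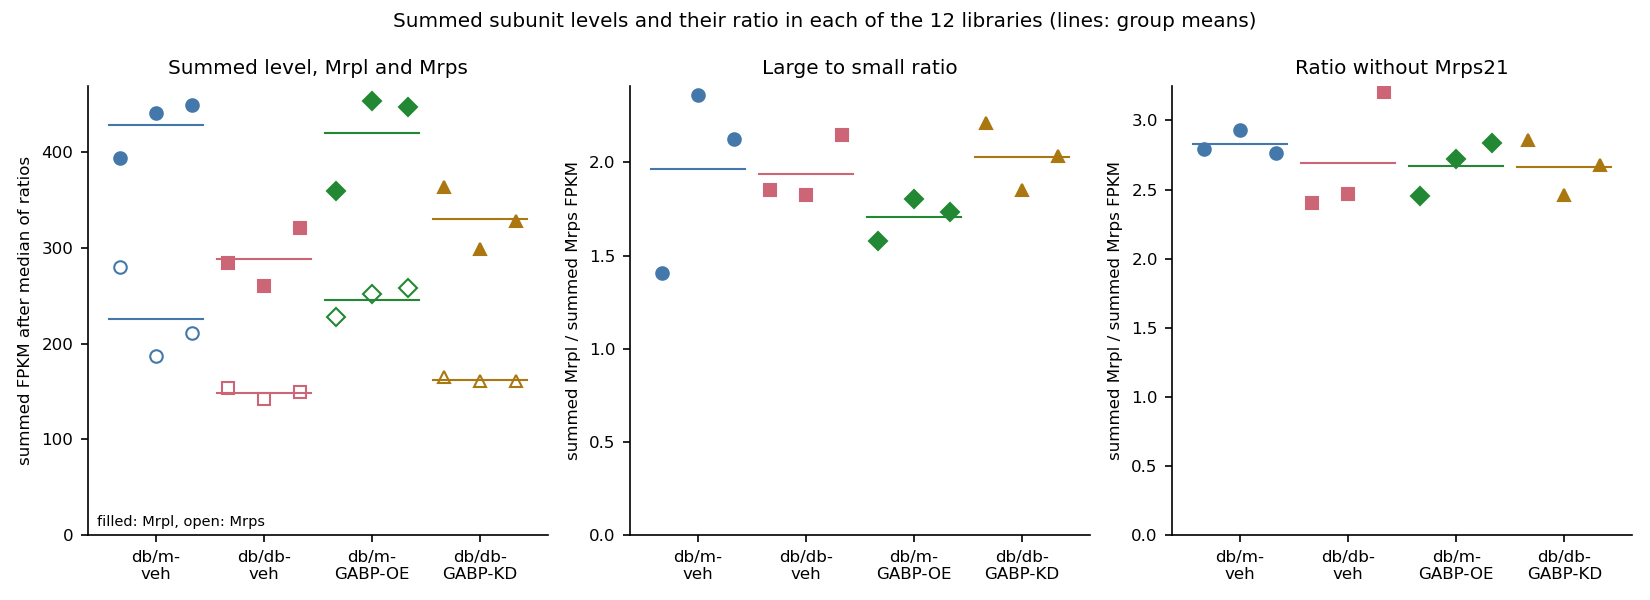
Summed FPKM after median of ratios scaling of Mrpl (filled) and Mrps (open) genes, their ratio, and the ratio without Mrps21, in each of 12 libraries, with lines at group means and axes from 0. Both sums are lower in db/db-veh than in db/m-veh in every library, and the spread of the ratio in db/m-veh (1.41 to 2.36) narrows to 2.77 to 2.93 without Mrps21.

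Names do not always give the subunit. Mrps30 and Mrps18a are built into the large subunit, and Mrps36 belongs to the 2-oxoglutarate dehydrogenase complex. Mrps18a, Mrps18b and Mrps18c are paralogs of one another and related to bacterial S18. In the classes of bacterial counterparts below, only Mrps18c was listed with one. Between db/db-veh and db/m-veh the log2 fold change was -1.10 ± 0.39 for Mrps18a, -0.39 ± 0.34 for Mrps18c and -0.19 ± 0.44 for Mrps18b, and the differences among the 3 were not tested. Mrps18a lay between 2.59 and 4.0004 FPKM in db/m-veh and between 0.914 and 1.62 in db/db-veh, without overlap. Mrps18b had 1.20, 0.562 and 1.08 and 1.55, 0.124 and 0.997, and shares 30.5% of its exon bases with Gm16279. Mrps36 had a log2 fold change of -1.33 ± 0.41, close to the lowest ribosomal members, and Mrps30 of -0.55 ± 0.42.

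Proteins listed with a bacterial counterpart and those listed without one were also set side by side. In db/db-veh the 30 large subunit proteins with a counterpart had a median of -0.68 and the 20 without one -0.84. In the small subunit the order was the other way, with -0.81 for 16 and -0.51 for 10. After scaling these medians were -0.42, -0.51, -0.49 and -0.25. Under GABP-OE the small subunit classes stood at 0.445 and 0.17 and the large at 0.27 and 0.33, but at 0.0553 and -0.19 and at -0.10 and -0.07 after scaling, so 3 of the 4 changed sign. Under the label GABP-KD all 4 lay between 0.63 and 0.75, and between 0.16 and 0.20 after scaling.

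How stable a member was across all libraries varied as well. After scaling, the coefficient of variation over 12 libraries had a median of 32.0%. It was lowest in Mrps17 (13.9%), followed by Mrps24 (17.6%) and Mrpl41 (18.7%), and highest in Mrpl43 (58.3%), Mrps21 (54.8%) and Mrpl18 (51.3%). Mrpl43 rested on 234 fragments in all, and Mrps21 on 5052.

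Fold changes of all genes varied with exon length in db/db-veh, which bears on members because they are short. After scaling, the median of all genes was -0.37 for up to 1500 bases, -0.14 for the next class up to 3000, 0.00 for the next up to 5000 and 0.11 above that. The members' medians in the same classes were -0.65 (19 genes), -0.40 (27), -0.50 (17) and -0.29 (14), and so were lower by 0.28, 0.26, 0.50 and 0.40. With GABP-OE the members' medians were 0.04 to 0.23 lower than those of all genes in each class. In the libraries labelled GABP-KD they were higher by 0.25, 0.29 and 0.18 in 3 classes and 0.03 lower in the class ending at 3000 bases.

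**Figure D5:**
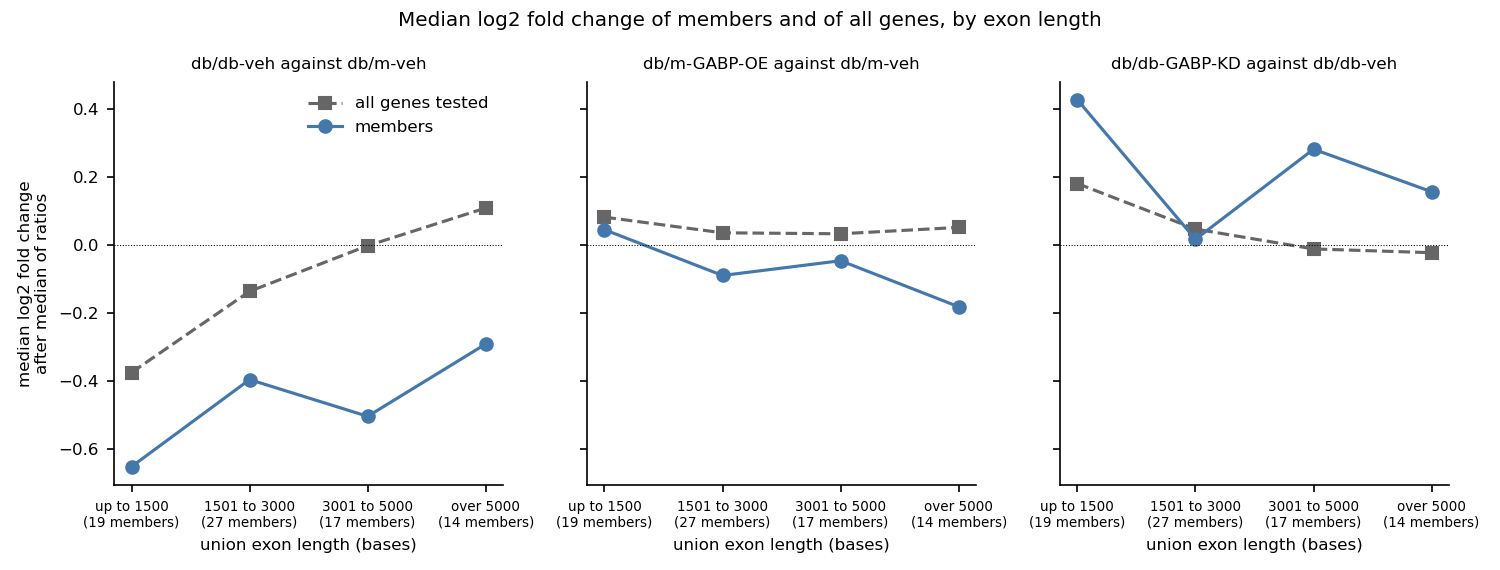
Median log2 fold change after median of ratios scaling of members (blue circles) and of all genes tested (grey squares) in 4 classes of union exon length, for 3 comparisons. In db/db-veh all genes run from -0.37 to 0.11 with length and members lie 0.26 to 0.50 below them in every class.

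Members with the GABP motif did not stand higher under GABP-OE. Their median log2 fold change was 0.21 (12 genes) against 0.37 for the 56 with a promoter and no match, or -0.15 and -0.02 after scaling. Among all genes tested, the 880 with the motif stood at 0.32 and the 9271 without at 0.39. In db/db-veh the motif members stood at -0.47 and the others at -0.83 (-0.30 and -0.51 after scaling), and under the label GABP-KD at 0.77 and 0.63 (0.31 and 0.14). The range within the 12 was wide: under GABP-OE Mrpl52 stood at 0.70 and Mrpl51 at 0.42, whereas Mrpl33 stood at 0.01, Mrps22 at 0.02 and Mrpl18 at -0.07. These differences were not tested.

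Other genes of mitochondrial translation came from a fixed list, of which 59 were tested: 4 ribosomal proteins with other symbols (such as Dap3 and Ptcd3), 13 translation factors, 20 mitochondrial aminoacyl-tRNA synthetases and related enzymes, and 22 assembly factors. None passed limma in any of the 3 comparisons. At an unadjusted p under 0.05 there were 7 (11.9%), all lower, in db/db-veh, near the 11.5% of all genes, and 8 (13.6%), all higher, under the label GABP-KD, near the 14.3% of all genes. With GABP-OE there were 0, against 15.05%. In db/db-veh their median was -0.30 as deposited and -0.03 after scaling, against -0.73 and -0.42 for the members. With GABP-OE it was 0.17 and -0.17, and under the label GABP-KD 0.31 and -0.13.

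Single genes of this list spanned a wide range. In db/db-veh the lowest were Gatc, part of the enzyme that makes glutaminyl-tRNA (-1.38 ± 0.48, SE), and Mrm3, an rRNA methyltransferase (-1.16 ± 0.34), and the highest Lars2 (1.07 ± 1.02) and Mrm2 (0.61 ± 0.45). With GABP-OE they were Lars2 (-2.03) and Tsfm (-0.26), and Mtfmt (0.71) and Mrm2 (0.65). Under the label GABP-KD they were Lars2 (-0.72) and Rars2 (-0.22), and Mrm3 (1.18) and Rbfa (1.14). Lars2, the leucyl-tRNA synthetase, was uneven, with 105 ± 92.1 FPKM in the libraries labelled GABP-KD and 10.5 ± 9.03 with GABP-OE (SD, n = 3). The 13 mitochondrially encoded genes, which this ribosome translates, had medians of 0.03, -0.22 and -0.28 in the 3 comparisons as deposited, and of 0.41, -0.64 and -0.89 after scaling. None of the 13 passed limma.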

How the data were processed

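Kidney RNA enriched for poly(A) was sequenced as paired ends in 12 libraries, per the labels' protocols. The authors deposited 1 table of FPKM per gene; the submitters' processing notes name HTSeq and GRCm39 without roles, and the sources used here do not name the aligner, strand setting or annotation. Values multiplied by GENCODE M21 exon lengths (GRCm38) gave whole fragments, within 0.05, for 98.0 to 98.1% of values above 0.

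Gene names came from GENCODE M21 for 21795 of 21899 IDs. limma 3.58.1 (R 4.3.3) was fitted to log2(FPKM + 0.5) over all 12 libraries, with 1 mean per group, for 12897 genes with at least 0.3 FPKM in at least 3 libraries; tests were two-sided with Benjamini-Hochberg adjustment over all genes, and a fold change understates low genes because of the added 0.5. The method was tested on simulated data with the same spread for every gene and with known size factors divided out. The fit as deposited has neither, so that test does not cover it. Size factors used 5884 genes. Promoters came from RefSeq (GRCm38.p6); stretches within annotated exons were not printed beyond short sites.

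The members and lists were chosen with earlier results of these data known. Members named were those called, the 4 highest and 4 lowest in each comparison, any without overlap against the list's direction, the 5 highest and 3 lowest by level in each subunit, and members placed in the other subunit. Alternatives were another pseudocount, filter, scaling, weights, replicate block, groups fitted alone, voom on fragments, and each library left out.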

Additional observations from a re-analysis of the deposited data

How the results depend on the processing

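The differences between the members' median and the all-gene median moved by less than the spread between replicates under all 78 alternatives run. These count each setting once per comparison, and part of them could not move the difference. Fits that change only the test, or leave out a library of neither group compared, return the same medians. For GABP-OE, where that difference is small, its sign turned with no filter, without db/m-GABP-OE 1 and without db/m-veh 3. Counting each setting once per comparison, the number of members called was 0 in 147 alternatives and changed in 4. These include the comparison for the label GABP-KD, where the main fit called no gene at all. Library weights gave 21 between db/db-veh and db/m-veh and 3 for GABP-OE, and median of ratios without db/db-veh 3 gave 1. Leaving out each library in turn gave 0 to 1 between db/db-veh and db/m-veh, the 1 being Mrps11 without db/db-GABP-KD 1. The cause was not tested.

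The large to small ratio changed with its definition. As a ratio of geometric means it was 1.32 (db/m-veh), 1.26 (db/db-veh), 1.30 (GABP-OE) and 1.21 (GABP-KD), and without the top member of each subunit 2.62, 2.57, 2.41 and 2.54 in that order. With subunits as assembled it was 1.83 for GABP-OE and 2.22 for GABP-KD.

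Between db/db-veh and db/m-veh, named members near the all-gene median changed sides of it. The values in this paragraph are log2 fold changes minus the all-gene median, not the fold changes themselves. Mrpl18 stood at -0.0147 with a pseudocount of 1, -0.0757 without a filter and -0.0612 with library weights. Mrps18b stood at -0.11 with a pseudocount of 0.1, -0.0600 without a filter, -0.0552 after median of ratios, -0.10 with equal nuclear sums, -0.0623 after quantile normalization, -0.11 with voom on fragments and -0.10 with voom at median of ratios sizes. Leaving out each library in turn, Mrpl18 ranged from -0.25 to 0.31, Mrps18b from -0.19 to 0.39 and Mrpl47 from -0.12 to 0.0263.

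Replicate numbers were not used to pair libraries. Deviations of same-numbered libraries correlated between -0.48 and 0.38 over genes, and 4 of 6, 2 of 6 and 1 of 6 libraries in the 3 comparisons correlated best with their own number. With a replicate block 0 members were called in every comparison, and all-gene calls were 13, 277 and 0 against 12, 245 and 0. The DESeq2 alternative was not run because the table holds no counts. The leave-one-out fits under median of ratios and the second voom fit were chosen after seeing the data. Members with the fewest fragments (Mrps18b, 2 in db/db-veh 2) are limited by depth.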

Other observations

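Many members sit back to back with another gene. In GENCODE M21, 33 of 77 members (42.9%) have a coding gene on the other strand whose annotated start lies within 1000 bases, against 15.1% of 12870 coding genes tested. The pairs include Mrpl46 with Mrps11, both members, Mrpl36 with Ndufs6 and Mrpl47 with Ndufb5 (complex I subunits), Mrps12 with Sars2 (mitochondrial seryl-tRNA synthetase), and Mrpl49 with Fau (a cytosolic ribosomal protein). After median of ratios scaling, 29 members with a tested partner had a median log2 fold change of -0.31 between db/db-veh and db/m-veh, and the partners -0.06. For GABP-OE the medians were -0.10 and -0.10, and for the label GABP-KD 0.22 and -0.09. Mrps11 and Mrpl46, whose starts are 412 bases apart, stood at -1.16 and -0.51 in the first of these. No test was made of these values.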
